A study of Homo sapiens with 4 samples.

Results

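The peaks described here lay in the outermost 2 Mb of the autosomes. A peak was included when its midpoint fell within 2 Mb of a chromosome end by GRCh38 lengths, and only the long-arm end was used for the 5 acrocentric chromosomes, which left 39 ends. Of the 56167 peaks in the list of the OMM2.3 cell line, 1819 were subtelomeric, and of the 136678 peaks in the list of 92.1, 3784 were. The rest of the same autosomes held 53242 and 130700 peaks.

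OMM2.3 and 92.1 are human cell lines of uveal melanoma, the melanoma of the pigmented layers of the eye. Chromatin of each line was immunoprecipitated once with an antibody against APOBEC3B (A3B) and once with normal rabbit IgG, so the 4 samples formed 4 groups of 1 library. The labels name no drug, knockdown or transgene for any sample. The IgG library of a line was the control in calling its peaks, and no test between the lines was possible with 1 library in each group.

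A3B is a nuclear enzyme that turns cytosine into uracil in single-stranded DNA, with a preference for cytosine preceded by thymine. Subtelomeres, the stretches between the telomere and the unique sequence of a chromosome arm, hold copies of one another, gene families and tandem repeats, and they are rich in G and C. Human telomeres are transcribed into the RNA TERRA, which can form R-loops, RNA-DNA hybrids that leave one DNA strand single.

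The following 3 windows show the strongest OMM2.3 peaks of 4q and 10q and the strongest in mostly single-copy sequence, since they carry the results on repeats below. Each window holds the reference sequence 100 bp on either side of a summit. In them, capitals mark CG, the dinucleotide that carries most cytosine methylation in human DNA. DUX4L4 is a copy of DUX4 in the D4Z4 array of 4q, and the ADGRA1 window, from an intron of an adhesion receptor gene, was itself a tandem repeat with a unit of 42 bases. The 19q window is the strongest OMM2.3 peak in mostly single-copy sequence and lies within ZIM2-AS1, an antisense RNA of an imprinted cluster.

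4q, DUX4L4, chr4:190081105-190081305, plus strand: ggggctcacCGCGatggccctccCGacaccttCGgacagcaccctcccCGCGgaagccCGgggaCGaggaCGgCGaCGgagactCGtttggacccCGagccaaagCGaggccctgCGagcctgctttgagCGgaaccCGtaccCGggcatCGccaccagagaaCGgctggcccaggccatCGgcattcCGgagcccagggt

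10q, ADGRA1, chr10:133111364-133111564, plus strand: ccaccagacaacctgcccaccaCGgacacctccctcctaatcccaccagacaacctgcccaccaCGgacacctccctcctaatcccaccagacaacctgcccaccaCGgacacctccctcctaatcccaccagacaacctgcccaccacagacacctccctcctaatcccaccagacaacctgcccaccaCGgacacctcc

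19q, ZIM2-AS1, chr19:56681804-56682004, plus strand: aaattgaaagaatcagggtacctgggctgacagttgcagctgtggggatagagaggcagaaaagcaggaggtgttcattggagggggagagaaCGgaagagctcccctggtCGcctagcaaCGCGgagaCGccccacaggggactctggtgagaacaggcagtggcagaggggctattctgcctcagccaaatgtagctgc

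The strongest subtelomeric peak of 92.1 lay in a nuclear copy of mitochondrial DNA on 1p. Capitals mark the 2 bases of this window that differ from the mitochondrial genome of the same reference.

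1p, MTND2P28, chr1:629748-629948, plus strand: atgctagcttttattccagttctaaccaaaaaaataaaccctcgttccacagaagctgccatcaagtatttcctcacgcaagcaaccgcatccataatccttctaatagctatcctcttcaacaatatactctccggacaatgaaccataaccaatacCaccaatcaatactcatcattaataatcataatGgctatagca

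The first question was whether the ends held more peaks than the rest of their chromosomes. In OMM2.3 they held 23.9 peaks per Mb of sequence outside assembly gaps, against 19.9 in the rest, and in 92.1 they held 49.7 against 48.8. When the rest of each chromosome was used to set the expected number, the ratio of observed to expected was 1.14 in OMM2.3 (95% interval 1.085 to 1.19, 1819 peaks against 1600 expected) and 0.992 in 92.1 (0.960 to 1.02, 3784 against 3816). The ends were thus slightly denser than the rest in OMM2.3 and not distinguishable from it in 92.1. These intervals and those below are exact Poisson intervals for numbers and exact binomial (Clopper-Pearson) intervals for shares, and they cover counting error only. Intervals of GC differences are normal approximations from standard errors and cover the spread over peaks only. Neighbouring peaks are not independent, and no replicate library was analysed.

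The small difference in OMM2.3 depended on what the ends were compared with. Against sequence 2 to 10 Mb from the same ends the OMM2.3 ratio was 1.012 (0.966 to 1.06), and against bins of the same GC class on the same chromosome it was 0.830 (0.793 to 0.869). In 92.1 the GC-class ratio was 0.888 (0.860 to 0.917). Pooled, the 17 short-arm ends of OMM2.3 had a ratio of 1.29 (1.21 to 1.38) and the 22 long-arm ends 1.02 (0.954 to 1.09), but the median over the single ends was in the opposite order, 1.096 for the short arms and 1.14 for the long arms. In 92.1 the pooled ratios were 0.936 (0.890 to 0.983) and 1.04 (0.993 to 1.08). No difference between short and long arms was tested.

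No step at the 2 Mb border was seen in the distance from the chromosome end. Over steps of 0.25 Mb the OMM2.3 ratio lay between 0.945 and 1.27 in the 8 steps inside 2 Mb. In the 32 steps between 2 and 10 Mb it lay between 0.969 and 1.31. For 92.1 the ranges were 0.922 to 1.098 and 0.876 to 1.07. The outermost 0.1 Mb had the highest ratio of the distance classes of 92.1, 1.18 (0.999 to 1.39, 144 peaks), and also of OMM2.3, 1.27 (0.974 to 1.62, 64 peaks), with both intervals reaching 1. In that outermost class 50% of OMM2.3 summits and 57.6% of 92.1 summits lay in repeated sequence, against 11.8% and 10.1% between 1 and 2 Mb. Repeated here means that 50% or more of the 32-mers in the summit window have a further copy on chromosomes 1 to 22, X or Y. The 0.1 Mb just inside the border held 89 peaks in OMM2.3 and 181 in 92.1, and the 0.1 Mb just outside held 94 and 195.

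**Figure D1:**
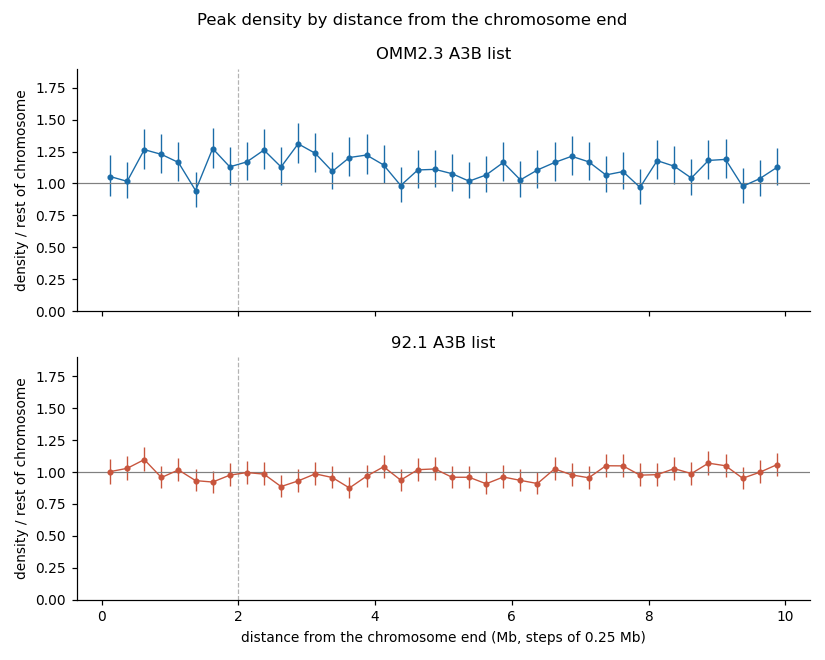
Peak density by distance from the chromosome end, as the ratio to the rest of the same chromosomes, in steps of 0.25 Mb for OMM2.3 (top) and 92.1 (bottom). Points are the 39 ends pooled, bars are exact 95% Poisson intervals and the dashed line is the 2 Mb border. OMM2.3 stays between 0.945 and 1.31 and 92.1 between 0.876 and 1.098 on either side of the border.

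The single ends varied widely, as did windows of the same size inside the chromosomes. The ratio of an OMM2.3 end to the rest of its own chromosome had a median of 1.13, with 0.0755 as the lowest and 3.49 as the highest. For 92.1 the median was 1.052, the lowest 0.125 and the highest 1.83. Of the inner windows of 2 Mb, the middle 90% had ratios between 0.112 and 2.39 in OMM2.3, and between 0.353 and 1.76 in 92.1. In OMM2.3, 24 of 39 ends were denser than the rest of their chromosome, where 43.2% of the 1336 inner windows were. In 92.1, 22 of 39 were, where 46.9% of the inner windows were. At least 1.5 times the rest was reached by 10 ends in OMM2.3 (inner windows 15.5%) and 3 in 92.1 (9.06%). A density at or below the rest divided by 1.5 was found at 12 ends in OMM2.3 (inner windows 30.5%) and at 8 in 92.1 (18.7%).

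The 5 densest ends of OMM2.3 relative to their chromosomes were 10q, 4p, 6p, 16p and 8q. The 10q end held 39 peaks, 20.1 per Mb against 5.76 in the rest (ratio 3.49). The 4p end held 91 peaks, 45.97 per Mb against 13.3 (3.46). The 6p end held 83 peaks, 42.8 per Mb against 13.2 (3.25). The 16p end, which carries the alpha globin genes, had a ratio of 2.60 with 90 peaks, and 8q had 2.15 with 105, the largest number of any end in that list.

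In 92.1 the 5 densest ends were 6p, 3q, 9q, 17q and 4p. The 6p end held 149 peaks, 76.8 per Mb against 42.1 in the rest (ratio 1.83), although it was sparser than the rest of its own arm (0.786, 0.665 to 0.923). The other 4 had ratios of 1.68, 1.57, 1.48 and 1.46. Only 6p and 4p, 2 of 5, were in this group in both lists.

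At the other extreme, 11q was the sparsest end in both lists. It held 2 peaks in OMM2.3, 1.005 per Mb against 13.3 in the rest (ratio 0.0755, 0.00914 to 0.273), and 11 in 92.1, 5.53 per Mb against 44.2 (0.125, 0.0624 to 0.224). The other 4 sparsest ends of OMM2.3 were 7q (7 peaks, 0.143), 9p (3 peaks, 0.163), 6q (5 peaks, 0.196) and 16q (7 peaks, 0.213). In 92.1 they were 9p (16 peaks, 0.172), 6q (16 peaks, 0.196), 17p (39 peaks, 0.424) and 8p (102 peaks, 0.497). The 11q, 9p and 6q ends, 3 of 5, were common to both groups.

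**Figure D2:**
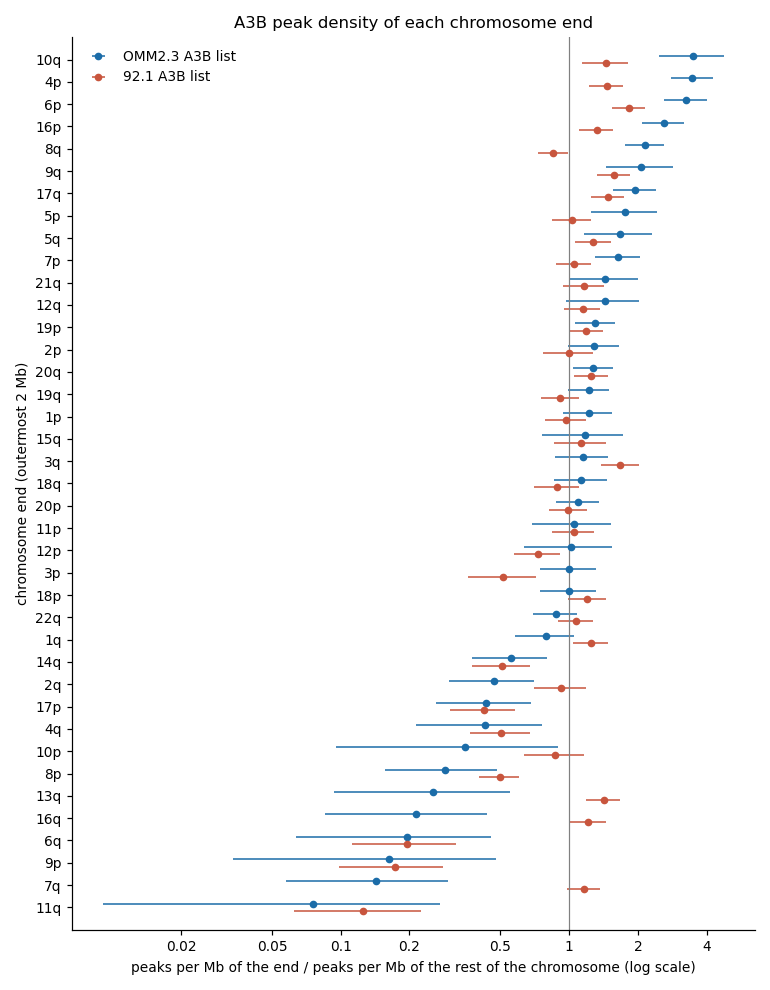
Ratio of the peak density of each end to that of the rest of its chromosome (log scale) for the 39 ends, ordered by OMM2.3. Points are the 2 lists, bars are exact 95% Poisson intervals and the grey line is a ratio of 1. The 11q, 9p and 6q ends lie low in both lists, while 7q, 13q and 16q are among those that lie low in OMM2.3 only.

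The ends were next set against the rest of their own arm. In peaks per Mb, an end ranked with the rest of its arm (Spearman's rho 0.787 in OMM2.3 and 0.782 in 92.1), a description over 39 ends that share 1 library per line. The ratio of an end to the rest of its arm still ranged between 0.0680 and 2.85 in OMM2.3 and between 0.142 and 1.897 in 92.1. In OMM2.3, 9 ends were at 1.5 or more and 9 at or below 1 divided by 1.5, and in 92.1 the numbers were 1 and 6. Inner windows were not compared with their arms, so these counts have no background share. The 6q end of OMM2.3 had 0.944 times the density of the rest of 6q (0.306 to 2.202), and its 6p end 1.29 times that of 6p (1.03 to 1.60), where the ratios to the whole chromosome were 0.196 and 3.25. In 92.1 some ends moved away from 1 or to its other side. Its 1p end had 1.897 times the density of the rest of 1p (1.53 to 2.32) and 0.966 times that of the chromosome, and its 1q end had 0.796 (0.666 to 0.945) and 1.24. Against the rest of its arm the 16q end of OMM2.3 had a ratio of 0.930 (0.374 to 1.92). The 11q end was sparse on that comparison too, with a ratio of 0.0680 (0.00824 to 0.246) for OMM2.3 and of 0.142 (0.0710 to 0.255) for 92.1. The same held for 9p in 92.1 (0.258, 0.147 to 0.418) and for 7q in OMM2.3 (0.158, 0.0636 to 0.326). Pooled against the rest of their own arms, the ends had a ratio of 1.12 (1.07 to 1.17) in OMM2.3 and 0.986 (0.955 to 1.02) in 92.1.

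**Figure D3:**
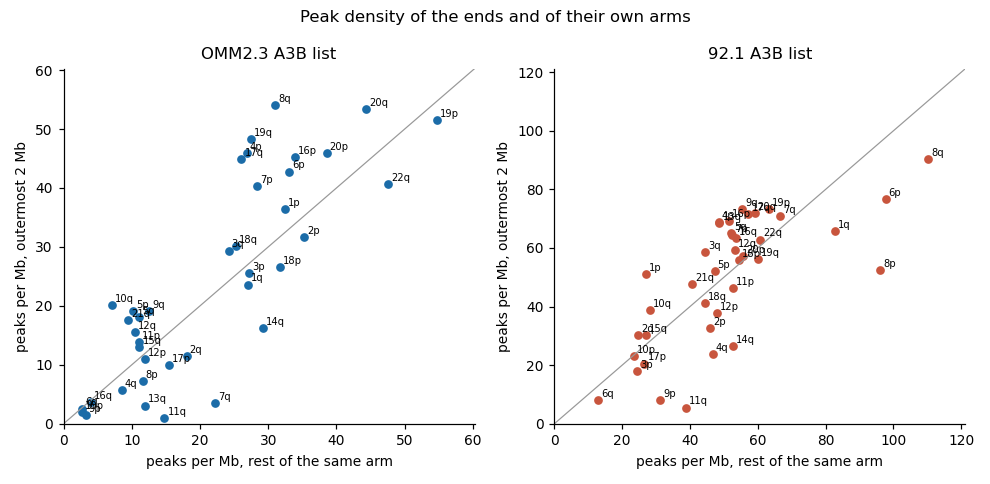
Peaks per Mb in the outermost 2 Mb against peaks per Mb in the rest of the same arm, for OMM2.3 (left) and 92.1 (right), with 1 point per end and a grey line of equal density. End and arm densities rank together (Spearman's rho 0.787 and 0.782), and 11q lies far below it in both lists.

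The IgG background moved with the density. The local background that the peak caller used at each peak was recovered from the deposited values, and its most frequent value, 1.053 scaled fragments in OMM2.3 and 0.877 in 92.1, is the genome-wide floor. The share of peaks with a background above that floor varied over the ends, between 0% and 97.6% for OMM2.3 and between 9.09% and 97.9% for 92.1. It ranked with the density of the end in peaks per Mb (rho 0.807 and 0.836 over 39 ends), less closely with the ratio to the chromosome (0.446 and 0.487) and least with the ratio to the arm (0.252 and 0.314). At 6p it was 97.6% in OMM2.3, against 20% at 6q, and at 11q it was 0% and 9.09% in the 2 lists. Its part in the differences of density was not tested.

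The lines agreed on some ends and not on others. The ratio was above 1 in both lists at 16 ends and below 1 in both at 9, while 8 ends were above 1 only in OMM2.3 and 6 only in 92.1. The ratios of the lists ranked together with a rho of 0.585 over the 39 ends. Agreement between the lists was not computed for the inner windows, so whether it is particular to the ends was not tested. With the intervals taken into account, 9 ends lay above 1 in both, 7 lay below 1 in both and 3 lay on opposite sides.

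Those 3 ends were 8q, 13q and 16q. The 13q end held 6 peaks in OMM2.3 (ratio 0.254, 0.0933 to 0.554) and 133 in 92.1 (1.41, 1.18 to 1.68). The 16q end held 7 in OMM2.3 (0.213, 0.0855 to 0.438) and 120 in 92.1 (1.21, 1.00 to 1.44). The 8q end went the other way, with 105 peaks in OMM2.3 (2.15, 1.76 to 2.60) and 175 in 92.1 (0.852, 0.730 to 0.988). The 7q end also differed, with 7 peaks in OMM2.3 (0.143, 0.0576 to 0.295) and 141 in 92.1 (1.16, 0.974 to 1.36). It was not among the 3, since its 92.1 interval includes 1. Against the rest of its arm, 7q had ratios of 0.158 in OMM2.3 and 1.06 in 92.1. The share of peaks above the background floor was 0% and 63.9% at 13q, 28.6% and 77.5% at 16q, and 89.5% and 97.7% at 8q, in OMM2.3 and 92.1 respectively, and its part in the difference was not tested.

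The numbers of genes with a peak at these ends rest on the same peaks, so they restate the split and are not a separate result. At 13q, 6 of 25 protein-coding genes had an OMM2.3 peak in the gene or within 3 kb of it and 22 had a 92.1 peak. At 16q the numbers were 5 and 30 of 42, and at 8q they were 47 and 62 of 77. Over the whole autosomes 52.4% of protein-coding genes had an OMM2.3 peak and 76% had a 92.1 peak, and over the 39 ends together 628 of 1239 (50.7%) and 899 (72.6%) did, close to those shares. The median coding gene of the ends spanned 15.7 kb and that of the rest 28.97 kb.

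Genes of telomere maintenance, replication and repair came from a chosen list, which does not show how many such genes the ends carry. Of the 22 genes on the list, 21 start in the 39 ends. Of these, 11 (52.4%) held an OMM2.3 peak and 20 (95.2%) a 92.1 peak, against 52.4% and 76% of all autosomal protein-coding genes. Gene length was not matched in this comparison. All 11 with an OMM2.3 peak also had one in 92.1. They held 19 OMM2.3 peaks and 56 of 92.1, with medians of 1 and 3 per gene. RTEL1 on 20q, a helicase that unwinds telomeric loops, had most in OMM2.3, 6 peaks in 38.4 kb, and 5 in 92.1. TERT on 5p, the catalytic subunit of telomerase, had 1 in OMM2.3 and 2 in 92.1, the stronger with a −log10 p of 2.34 and 3.46. POLE on 12q, the catalytic subunit of the leading-strand polymerase, had 1 and 3, and RECQL4 on 8q, a helicase of replication initiation, had 2 and 3.

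Of the 21 genes, 5 lie on 13q and 16q, where OMM2.3 had few peaks. Their counts rest on those same peaks and are not a separate result. None of these 5 held a peak in OMM2.3, and 4 did in 92.1. TFDP1, the partner of E2F transcription factors, had 5 peaks in 92.1, and CUL4A, a scaffold of the ubiquitin ligase that degrades the licensing factor CDT1, had 3. CDC16, a subunit of the anaphase-promoting complex, had 2, and FANCA, of the Fanconi anaemia core complex, had 5 in 90.3 kb. CDT1 itself, on 16q, had no peak in either list. CHTF18, which loads the replication clamp, had 1 in OMM2.3 and 4 in 92.1, and EME2, a partner of the MUS81 nuclease, had 0 and 5. RPA1, the large subunit of the protein that coats single-stranded DNA, had 1 in each list. TELO2, which stabilises the checkpoint kinases, and the base excision glycosylase MPG had 0 and 1 each. POLRMT, the mitochondrial RNA polymerase, and TRIM28, a silencing cofactor of zinc finger proteins, had 2 and 1 each. The condensin subunits NCAPG2 and NCAPH2 had 1 and 5, and 0 and 1. RAD52, which anneals single strands in repair, had 0 and 2. SLBP, the histone mRNA binding protein, and TYMS, thymidylate synthase, had 1 and 3 each.

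**Figure D4:**
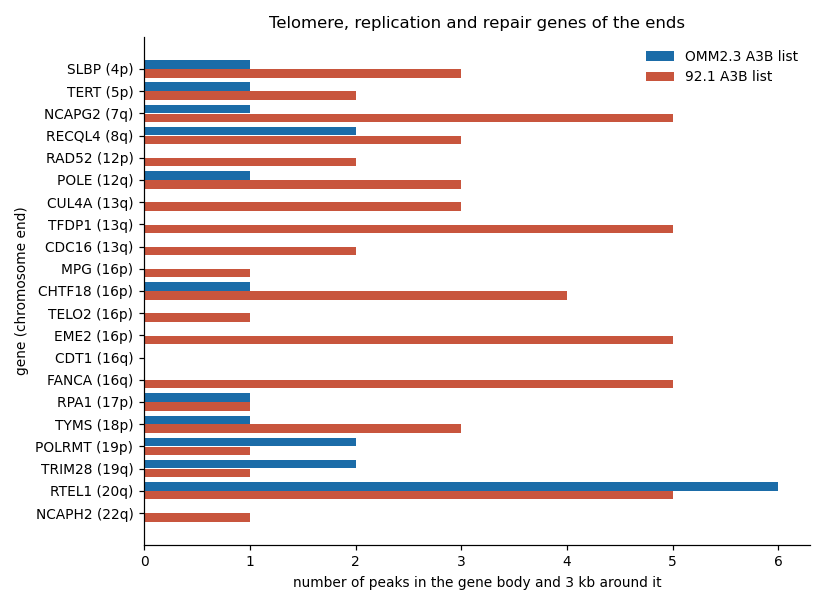
Number of peaks in the body of each of the 21 telomere, replication and repair genes of the ends and 3 kb around it, for OMM2.3 (blue) and 92.1 (red), with the end in brackets. RTEL1 holds 6 and 5 peaks, and the 5 genes of 13q and 16q hold none in OMM2.3.

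The other listed genes of the ends were mixed. Of the pigment cell genes, IRF4 on 6p, a regulator of pigmentation, had 2 OMM2.3 peaks and 1 of 92.1, while the melanocortin receptor gene MC1R on 16q and S100B on 21q had none in either list. All 5 alpha globin genes of 16p were within 3 kb of an OMM2.3 peak and 3 were within 3 kb of a 92.1 peak, and since HBZ, HBM, HBA2, HBA1 and HBQ1 are neighbours, 1 peak can count for more than one of them. HBM had 1 peak in OMM2.3 and 3 in 92.1, HBA2 2 and 0, HBA1 1 and 0, HBQ1 1 and 2, and HBZ 1 in each list. Of the gel-forming mucin genes of 11p, MUC5AC and MUC5B each had 2 OMM2.3 peaks with 4 and 3 in 92.1, MUC2 had 0 and 3, and MUC6 had none. Of the 173 immunoglobulin heavy chain segments of 14q, which are short and sum to 109 kb in length, 6 had an OMM2.3 peak and 10 had a 92.1 peak. These segments are neighbours too, so 1 peak can count for more than one of them, as for adjoining IGHD segments in 92.1. Among autosomal genes of any type under 1 kb long, 13.4% had an OMM2.3 peak and 29% had a 92.1 peak, and the 14q end itself had a density ratio of 0.558 and 0.508.

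Genes with the most peaks were mainly long ones. In OMM2.3 the calcium channel gene CACNA1C on 12p (727 kb) came first with 21 peaks, followed by ATP9B on 18q (14), GNB1 on 1p (13), DLG1 on 3q (12), MROH1 on 8q (11), PRKAR1B on 7p (11), NFATC1 on 18q (10), C7orf50 on 7p (9), ARHGAP39 on 8q (9) and MAPK8IP3 on 16p (8). CACNA1C starts 1971 kb from its chromosome end, so most of its body lies past the border, and peaks there are not subtelomeric. GNB1 encodes a G protein beta subunit and had 13 peaks in 107 kb, against 3 in 92.1. In 92.1 the phosphatase gene PTPRN2 on 7q (1049 kb) came first with 53 peaks against 3 in OMM2.3, then DLGAP2 on 8p with 26 against 0 and MCF2L on 13q with 21 against 0. ATP9B had 21, PRKAR1B and EXOC2 20 each, CACNA1C 18, and ZC3H3, ERICH1 and TBCD 17 each. PTPRN2, DLGAP2 and MCF2L lie on the 7q, 8p and 13q ends, which had OMM2.3 ratios of 0.143, 0.287 and 0.254.

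Gene families that are copied between chromosome ends were compared next, with the limit that reads from near-identical copies cannot be placed with certainty. Of 107 family members, 32 (29.9%) had an OMM2.3 peak and 38 (35.5%) had a 92.1 peak, and 9 had both. Of all autosomal genes of any type, 32.8% had an OMM2.3 peak and 53% had a 92.1 peak. Among those under 1 kb long the shares were 13.4% and 29%. The family shares lay between these backgrounds in both lists, and gene length was not matched. The D4Z4 family was the one found in OMM2.3 alone, where 9 of 24 DUX4 and DUX4L genes of 4q and 10q were within 3 kb of a peak and none was in 92.1. Since the copies of an array are neighbours, 1 peak can count for more than one of them. DUX4 is an embryonic transcription factor whose 4q array is normally silent in body tissues. In 92.1 the WASH genes (5 of 7, 12 peaks), FAM157 (3 of 4, 14 peaks), TUBB8 (4 of 5, 10 peaks) and the RPL23AP pseudogenes (9 of 16, 18 peaks) held most. Single long members carried much of this, with 11 peaks at FAM157C (76.1 kb), 6 at WASHC1 (59.4 kb) and 6 at TUBB8B (26.3 kb). The numbers in OMM2.3 were 3 peaks at WASH, 2 at FAM157, 1 at TUBB8 and 8 at RPL23AP. DDX11L copies had peaks at 3 of 9 genes in OMM2.3 and 1 in 92.1, FAM138 at 2 and 4 of 5, CICP at 3 and 6 of 10, OR4F olfactory receptors at 1 and 3 of 18, MIR1302 at 0 and 2 of 6, and FRG2 at 0 and 1 of 3.

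The D4Z4 array of 4q, from DUX4L8 to DUX4L2, spans 24.3 kb in GRCh38 and held 3 OMM2.3 peaks. The strongest, at DUX4L4 (chr4:190081110-190081423), had a −log10 p of 8.68 on 34 fragments over a background of 8, a fold enrichment of 3.39. A neighbour beside DUX4L1 (chr4:190083624-190083902) had 7.53 on 32 fragments. Both windows were wholly repeated, with a median of 23 and 20 genomic copies of their 32-mers. On 10q, a peak 3634 bp from the start of DUX4L15 (chr10:133763402-133763747) had 108 fragments over a background of 52.0 and a −log10 p of 6.98. The IgG background at these peaks was thus 7.60 and 49.4 times the floor. No peak of 92.1 fell in or within 5 kb of these arrays.

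In 92.1 the strongest subtelomeric peaks formed a cluster on 1p. A segment of 5.86 kb (chr1:629062-634922) that holds 7 pseudogenes of mitochondrial genes, from MTND1P23 to MTCO3P12, had 6 peaks in 92.1 and none in OMM2.3. The peak at MTND2P28 (chr1:629644-630038) had 97 fragments over a background of 8.09, a fold enrichment of 10.8 and a −log10 p of 68.4, the highest of all autosomal peaks in the list. The peak at MTATP6P1 (chr1:633878-634177) had 104 fragments over 12.1 and a −log10 p of 59.4. The 6 summit windows were 99.0% to 100% identical to the mitochondrial genome, so fragments of either origin cannot be told apart here. The 92.1 list also held 1 peak over the mitochondrial genome itself, covering 98.8% of it with a fold enrichment of 3.92, and the OMM2.3 list held none.

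Peaks that passed a false discovery threshold were rare in the ends. With the q limit at 0.05, 5 of 1819 OMM2.3 peaks passed (0.275%, 0.0893 to 0.640), where 0.351% of all autosomal peaks did, and 8 of 3784 passed in 92.1 (0.211%, 0.0913 to 0.416), where 0.149% did. With the p limit at 1e-05 the numbers were 9 (0.495%, against 0.728% of all autosomal peaks) and 32 (0.846%, against 0.853%). All 5 of OMM2.3 lay in repeated sequence, among them both D4Z4 copies, the 10q peak by DUX4L15 and the ADGRA1 repeat (chr10:133111334-133111638, 21 fragments over 3.00, −log10 p 9.25). Of the 8 in 92.1, 4 were in the mitochondrial-like segment. The others were 2 on 18p, of which 1 near ROCK1P1 rested on 364 fragments over a background of 255 (fold enrichment 1.43), 1 on 4p and 1 within IFITM10 on 11p (8 fragments over 0.921, −log10 p 6.24). None of these peaks met a peak of the other line. Without the mitochondrial-like segment and the DUX4L arrays the shares fell to 0.1103% (0.0134 to 0.398) in OMM2.3 and 0.106% (0.0289 to 0.271) in 92.1.

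In mostly single-copy sequence the strongest OMM2.3 peaks were modest. The ZIM2-AS1 peak of 19q (chr19:56681739-56682062) had 10 fragments over 1.12 and a −log10 p of 5.54. It was followed by peaks at UCKL1 on 20q (5.48), MROH1 on 8q (5.09), MIB2 on 1p (4.83) and INPP5A on 10q (4.83). The ZIM2-AS1 peak met a peak of 92.1 and the other 4 did not. Of the 5 strongest single-copy peaks of 92.1, 1 lay in an intron of a long non-coding gene on 18p (chr18:1105575-1106313), with 9 fragments over 0.877 and a −log10 p of 7.47, and the other 4 were in the mitochondrial-like segment, which counts as single-copy because copies were not counted on the mitochondrial genome.

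A typical subtelomeric peak resembled those of the rest. Median fold enrichment was 2.60 in both zones of OMM2.3 and 2.63 against 2.66 in 92.1, and the median number of fragments was 6 in OMM2.3 and 4 in 92.1 in both zones. The median width was 265 bp against 253 bp in OMM2.3 and 239 bp against 236 bp in 92.1. A background above the floor was somewhat more frequent in the ends. The OMM2.3 share was 67.01% (64.8 to 69.2) against 62.3%, and the 92.1 share was 68.9% (67.4 to 70.4) against 58.9%. Repeated windows were 17.8% of OMM2.3 summits in the ends (16.03 to 19.6) and 22.7% in the rest, and 16.4% (15.2 to 17.6) and 14.6% in 92.1. On the grid they were 16.6% and 14.99%.

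Subtelomeric summits were GC-richer than those of the rest in both lists. The ends had a GC content of 48.9% against 40.7% in the rest. Summit windows had a mean of 53.4% in the ends and 45.9% in the rest in OMM2.3, a difference of 7.52 percentage points (7.05 to 7.99), and 51.1% against 42.04% in 92.1, a difference of 9.09 (8.73 to 9.46). Grid windows of the ends averaged 49.0% and those of the rest 40.7%. OMM2.3 summits were thus GC-richer than the grid in both zones, by more than those of 92.1.

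In the rest the density rose with each GC class of the 100 kb bins in both lists. The ends of 92.1 rose with each class too, and those of OMM2.3 did not rise in order. Where the bin had 54% GC or more, the ends of OMM2.3 held 35.8 peaks per Mb (33.1 to 38.5) and the rest 40.2 (38.1 to 42.3). Between 50% and 54% they held 21.5 (19.3 to 24.0) against 37.0 (35.9 to 38.2). The ends were lower in 5 of 6 GC classes in OMM2.3, with intervals apart in 3, and higher only below 38% GC, with 19.1 (15.05 to 23.9) against 12.6 (12.3 to 12.8). In 92.1 they were lower in 5 of 6 classes, with intervals apart in all 5, and level at 54% or more, 64.6 (61.0 to 68.2) against 64.2 (61.5 to 66.9). Inner windows of 2 Mb with at least 50% GC had a median ratio of 1.63 in OMM2.3 and 1.28 in 92.1 (29 windows), and the 19 ends with at least 50% GC had 1.43 and 1.16.

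**Figure D5:**
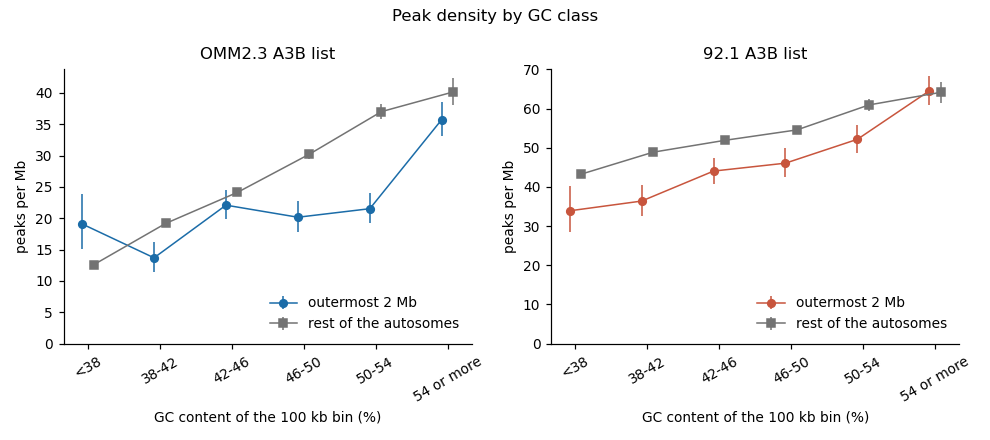
Peaks per Mb by GC content of 100 kb bins, for the outermost 2 Mb (coloured circles) and the rest of the autosomes (grey squares), in OMM2.3 (left) and 92.1 (right), with exact 95% Poisson intervals. Density rises with GC in the rest of both lists, and the ends lie below it in 5 of 6 classes.

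A motif of 4 runs of at least 3 G with loops of up to 7 bases, on either strand, which can fold into a G-quadruplex, was found in 10.1% of subtelomeric summit windows of OMM2.3 (8.77 to 11.6) and 3.09% of the rest, and in 6.84% (6.06 to 7.70) and 2.23% in 92.1. Grid windows held it in 6.79% and 2.08%. In windows with at least 62% GC the shares in the ends were 27.8% at OMM2.3 summits, 23.8% at 92.1 summits and 27.6% on the grid. CG dinucleotides numbered 2.51 per 100 bases at OMM2.3 summits of the ends, 2.40 at those of 92.1 and 2.21 on the grid. Cytosine preceded by thymine made up 22.6% of C in the ends and 26.9% in the rest in OMM2.3, with G followed by A counted on the other strand, and 23.5% and 28.7% in 92.1. On the grid it made up 24.4% and 29.2%. Within windows of 46% to 54% GC it was 24.9% at OMM2.3 summits, 24.8% at 92.1 summits and 25.1% on the grid of the ends.

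Promoters held a larger share of the peaks, and of the bases, in the ends than in the rest. Of the subtelomeric peaks, 37.8% (35.5 to 40.04) in OMM2.3 and 39.3% (37.7 to 40.9) in 92.1 had their summit within 3 kb of a transcription start site, where 34.2% of the bases of the ends are. In the rest the shares were 20.01% and 19.9% of peaks and 17.5% of bases. Exons held 4.34% and 3.30% of the subtelomeric peaks, introns 34.4% and 35.7%, and intergenic sequence 23.5% and 21.7%, against 3.36%, 36.7% and 25.8% of bases. There were 16.3 protein-coding genes per Mb in the ends and 6.67 in the rest.

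Few subtelomeric peaks were found in both lines. An overlap of at least 1 bp was found for 84 peaks of each list, 4.62% of OMM2.3 (3.70 to 5.69) and 2.22% of 92.1 (1.77 to 2.74), against 3.59% and 1.46% in the rest. If the peaks of each list lay evenly over each end, 64.8 overlaps would occur, so the observed number was 1.30 times that (1.03 to 1.61), and in the rest it was 1.19 times (1.14 to 1.25). The 5 pairs with the highest lower −log10 p all rested on 5 to 8 fragments. They lay in the tubulin cofactor gene TBCD on 17q (2 pairs), in intergenic sequence of 22q, in an intron of SLC66A2 on 18q and in a promoter region of SDCBP2 on 20p. The first TBCD pair (chr17:82893035-82893273 in OMM2.3 and chr17:82892547-82893053 in 92.1) had a −log10 p of 3.94 and 4.41. Its peaks met only at their edges, with each summit outside the peak of the other line. The last pair had 3.77 and 3.46.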

How the data were processed

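A3B and IgG ChIP-seq libraries were prepared from OMM2.3 and 92.1 cells, 1 of each per line. Per the submitters' processing notes, the tools were FastQC 0.11.9, Bowtie2 2.2.5, MACS2 2.2.7.1, deepTools 3.5.1 and ChIPseeker, with GRCh38, and the study's methods add removal of duplicates. The authors called peaks at a p of 0.05 for each A3B library against IgG of the same line. Filters on mapping quality were not given in the sources used here. The deposited score is 10 times the −log10 p cut to a whole number. The deposited fold enrichment is the ratio of scaled fragments to the local background at the summit, with 1 added to both. The authors' caller also wrote a −log10 p-value and, adjusted for multiple tests, a −log10 q-value, both deposited.

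Fragments and background at each summit were recovered from fold enrichment and −log10 p, which gave a whole number within 0.002 of the deposited −log10 p in 99.96% (OMM2.3) and 99.99% (92.1) of the peaks. Read depth is otherwise unknown. A peak with a median of 6 or 4 fragments is imprecise, and a value set by so few fragments is coarse. For 92.1 a scaling of 1 was used, and a smaller one, with more fragments behind each peak, could give the same deposited values.

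Densities were taken over GRCh38 sequence outside gaps. The expected number at an end came from the rest of its chromosome, or from 100 kb bins of the same GC class there. Of the bases in the ends, 10.5% used the class pooled with lower ones, since the rest of their chromosome held under 1 Mb of it. Centromeres were placed by the CENP-B box. Genes were those of GENCODE 44. Promoters were 3 kb on either side of the start of any transcript. Background shares are those of all autosomal peaks or genes, or of 1336 inner windows. Computation used Python 3.11.15, numpy 2.4.6, pandas 2.3.3, scipy 1.17.1, pysam 0.24.0 and matplotlib 3.10.9, and was tested on simulated data. With 1 library per group, no test between lines was made. The alternatives varied the window, the threshold, the placement, the comparison sequence, the overlap, the promoter and the repeat filter.

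Named genes were every listed gene starting in the ends and, per line, the 10 coding genes with most peaks. The 5 ends with the highest and lowest ratio, the 5 strongest peaks, apart from those not reported here, and the 5 strongest shared pairs were also named. Single-copy peaks, peaks past the q limit of 0.05, the mitochondrial-like segment, the D4Z4 arrays and the ends on opposite sides were added after their values were seen. The members and lists were chosen with earlier results of these data known. The sequence windows and values of 2 OMM2.3 peaks are not reported here.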

Additional observations from a re-analysis of the deposited data

Results flagged for a closer look

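Some ratios lay above 1 in one line and below 1 in the other, and none of these differences was tested, since each line had 1 library. The pooled ends had a density ratio of 1.14 in OMM2.3 and 0.992 in 92.1, whose interval (0.960 to 1.02) includes 1, and the short-arm ends 1.29 and 0.936. The 8q end had 2.15 in OMM2.3 and 0.852 in 92.1, the 13q end 0.254 and 1.41, and the 16q end 0.213 and 1.21. Against the rest of their own arms the 3 ends had ratios of 1.74 and 0.819, 0.260 and 1.41, and 0.930 and 1.19, with intervals that include 1 for both values of 16q (0.374 to 1.92 and 0.983 to 1.42).

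Outside the autosomes, the 92.1 list held 1 peak over the mitochondrial genome with a fold enrichment of 3.92 over IgG (−log10 p 86.7), where the OMM2.3 list held none.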

How the results depend on the processing

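Of 68 recomputed values, 42 stayed within their interval (or, for counts of ends, within 1.5 times), 23 moved outside it and 3 of OMM2.3 fell from above 1 to below it. The main interval of 92.1 includes 1, and its ratio lay on either side of 1 over the alternatives, between 0.888 and 1.28. The density ratio of OMM2.3, 1.14, fell to 0.679 at a q of at most 0.05 (0.220 to 1.58), to 0.614 at a p of at most 1e-05 (0.281 to 1.17) and to 0.830 against the same GC class. The first 2 rest on 5 and 9 peaks, and the cause was not tested. It was 1.012 against sequence 2 to 10 Mb from the ends and 1.22 in single-copy windows. For 92.1, with 0.992, it was 1.28 at a q of at most 0.05 (0.554 to 2.53) and 0.952 at a p of at most 1e-05 (0.651 to 1.34). The value of 1.28 rests on 8 peaks, 4 of them in the mitochondrial-like segment of 1p. The ratio of 92.1 was 0.888 against the same GC class and 1.052 as the median over the ends.

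Ends at least 1.5 times as dense as the rest numbered 10 and 3, in place of 24 and 22 above it. The share at a q of at most 0.05 in OMM2.3 was 0% in single-copy windows (upper bound 0.246%), and that of 92.1 became 0.846% at a p of at most 1e-05. The GC difference was 6.40 points within 1 Mb and 6.31 within 5 Mb in OMM2.3, and 8.08 and 7.60 in 92.1. Shared peaks fell to 2.80% and 1.35% when the overlap had to cover 0.5 or more of the shorter peak. Promoter shares were 16.5% and 18.6% within 1 kb, 27.9% and 28.9% for protein-coding genes, 31.4% and 32.2% within 5 Mb, and in 92.1 41.2% within 1 Mb. The comparison with the same arm and the share without the 1p segment and DUX4L arrays were chosen after seeing the data, and their 6 values stayed within the interval or the 1.5 times, although the latter shares were more than 1.5 times lower, at 0.1103% and 0.106%.

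No paired analysis was possible because the groups had single libraries. Leaving out a replicate could not be done for the same reason. Peaks of 4 to 6 fragments limit all values, and reads in repeated sequence cannot be placed with certainty.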
